A study of Caenorhabditis elegans with 12 samples.

Results

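The transcripts of Caenorhabditis elegans worms that carried both lonp-1(cmh24) and mrps-38(P210L) were compared with those of wildtype worms, gene by gene. The members were chosen by genotype and are the 3 double mutant and 3 wildtype libraries, 6 of the 12 libraries of the series, across all genes. The other 6 libraries, 3 of each single mutant, serve only as reference points. All worms were grown on HT115 E. coli and harvested whole as L4 larvae, the last larval stage, and each library is a biological replicate of total RNA. The wildtype libraries bear the strain name N2 and carry neither mutation, and the sources used here do not say what lesion cmh24 is. The comparison asks what differs from wildtype when the mitoribosomal mutation is combined with the LONP-1 deficiency that the title of the series names.

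LON (LONP-1 in worms) is an ATP-dependent protease of the mitochondrial matrix that removes damaged and unassembled proteins, and MRPS-38 belongs to the small subunit of the mitochondrial ribosome. That ribosome translates only the mRNAs of mitochondrial DNA, which encode core subunits of the respiratory chain and the ATP synthase, while all its proteins are encoded in the nucleus. Worms answer stress in the matrix with the mitochondrial unfolded protein response, in which the transcription factor ATFS-1 raises chaperones such as hsp-6. In the L4 stage hermaphrodites make sperm and molt for the last time, and yolk synthesis and oocyte growth follow in the adult.

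The 6 libraries held 22677791 to 22890539 reads in genes, and 15585 of 19568 genes reached a mean of 10 normalized counts over them and were tested. Values are the authors' DESeq2 normalized counts, read counts scaled by 1 size factor per library (1.0082 to 1.0525 here). Changes are log2 fold changes ± SE of the normalized count + 1, double mutant minus wildtype unless stated, fitted with limma on 3 libraries a group (n = 3), and p-values are Benjamini-Hochberg adjusted over all genes tested. The replicates of the double mutant lay close together, with a variance between pairs of 1.67 to 2.03 times that of read counting, against 6.98 to 28.9 times between pairs of wildtype, where replicates 1 and 2 differed most. In whole worms, fewer cells of a type and less RNA per cell cannot be told apart. Genes of multi-copy families (col, msp, vit, his, pals and others) are alike in sequence, and how reads were split among their members is uncertain.

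The words rose and fell are used of genes with an adjusted p under 0.05. By that rule 78.7% of the genes tested differed, 6880 higher (44.1%) and 5391 lower (34.6%), and 12728 genes had no overlap between the groups. Counts of list members below are to be read against these shares, and a smaller set that changed at least 2-fold, 2964 genes higher (19.0%) and 1864 lower (12%), is used beside them. The median of all genes tested was 0.10 with the authors' size factors and -0.03 with TMM factors, so a change near 0.1 has no direction that holds under both. Against lonp-1(cmh24) the double mutant differed in 56.5% of 15790 genes tested, 4966 higher (31.5%) and 3951 lower (25%), and 20.4% at least 2-fold (12.7% higher and 7.71% lower). That split depends on the scaling, with 3216 higher and 6470 lower when reads are scaled to the library total (FPKM) and 3750 and 5495 with TMM factors. Against mrps-38(P210L) 86.2% of 15641 genes differed, 7023 higher (44.9%) and 6460 lower (41.3%), and 8363 and 4990 on FPKM. At least 2-fold changes made up 26.1% higher and 18.7% lower. The median of all genes against lonp-1(cmh24) was 0.03, and -0.10 with TMM factors and -0.18 on FPKM. Against mrps-38(P210L) it was 0.05, and 0.33 on FPKM, so differences of these sizes from a single mutant have no settled direction. The 3 comparisons share the double mutant libraries.

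**Figure D1:**
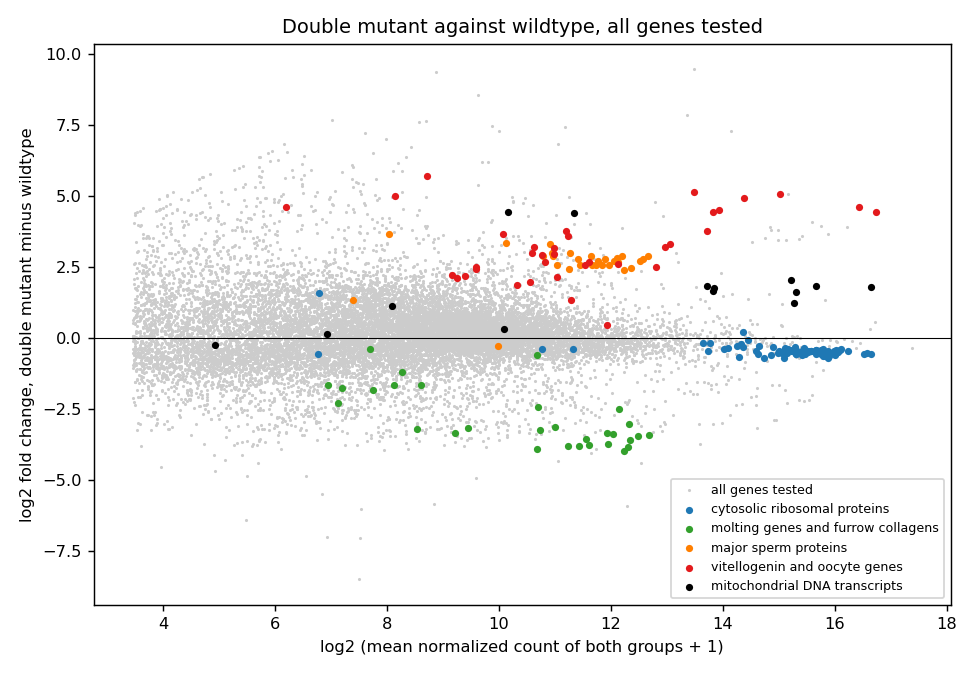
Log2 fold change of the double mutant against wildtype (vertical axis) against the log2 of the mean normalized count of both groups + 1 (horizontal axis) for the 15585 genes tested, with 5 groups of genes coloured. Vitellogenin and oocyte genes lie above 0, molting genes and furrow collagens lie below it, and cytosolic ribosomal proteins lie at high counts with a median of -0.46.

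Transcripts of lonp-1 (WBGene00016391; chromosome I, 10676922 to 10682374 in WBcel235) were still present in the double mutant. The normalized counts were 1663, 1759 and 1643 in wildtype and 1488, 1412 and 1412 in the double mutant. All 3 double mutant libraries lay below all 3 of wildtype (-0.23 ± 0.047, adjusted p = 0.000873), and the mean in lonp-1(cmh24) was 1339.5. The alleles are not read out by these counts, and mrps-38 was not analysed here.

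Worms of both groups were harvested as L4 larvae, but markers of the last molt and of adulthood differed between them. Vitellogenins, the yolk proteins that the adult intestine makes, took 0.094, 0.11 and 0.107% of reads in the 3 wildtype libraries and 2.44, 2.46 and 2.46% in those of the double mutant. Genes of the oocyte and eggshell took 0.0848, 0.108 and 0.0957% and 0.759, 0.751 and 0.752% in the same order. Genes of molting and the apical extracellular matrix took 0.426, 0.433 and 0.431% in wildtype and 0.0515, 0.0526 and 0.0514% in the double mutant. The groups did not overlap in any of the 3 lists, with the double mutant higher in the first and second and lower in the third. For vitellogenins the single mutants lay on both sides of wildtype, at 0.949 ± 0.172% in lonp-1(cmh24) and 0.00171 ± 0.00184% in mrps-38(P210L) (SD, n = 3). So they did for oocyte and eggshell genes, at means of 0.730 and 0.0440%. Molting and apical matrix genes took a mean of 0.242% in lonp-1(cmh24). In mrps-38(P210L) they took 0.427 to 0.447%, which overlapped wildtype. These markers differ between the same libraries as every result below, and their part in those results was not tested.

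**Figure D2:**
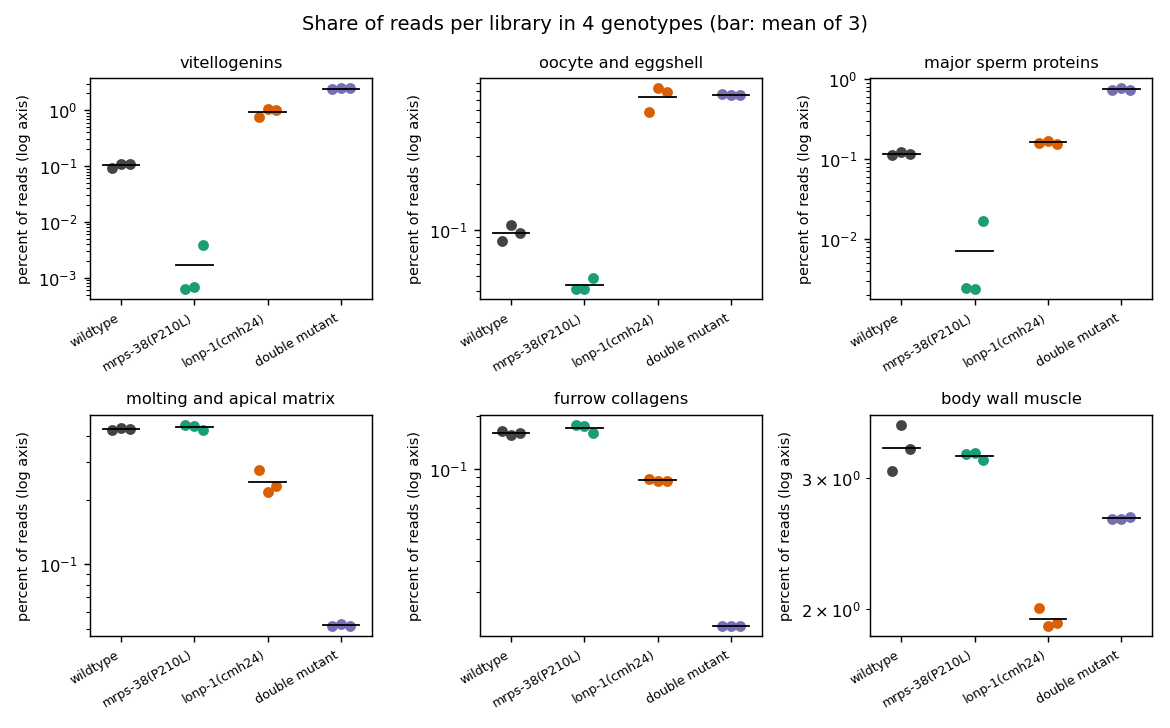
Percent of reads (log axis) taken by 6 gene lists in each library of the 4 genotypes, with a bar at each group mean. The double mutant is highest for vitellogenins and major sperm proteins and lowest for molting genes and furrow collagens.

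Of the transcripts of mitochondrial DNA, most of the mRNAs and both rRNAs were higher in the double mutant than in wildtype. Of the 12 mRNAs, 9 rose, each at least 2-fold, 0 fell and 3 did not pass the test. Their median was 1.64. Together they took 0.711, 0.688 and 0.605% of reads in wildtype and 2.14, 2.18 and 2.32% in the double mutant.

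Among subunits of the ATP synthase and of cytochrome c oxidase, all 4 that the genome of the mitochondrion encodes rose. The counts of atp-6, a membrane subunit of the ATP synthase, were 15249, 15429 and 13872 in wildtype and 61274, 57302 and 65490.4 in the double mutant. Those of ctc-1, the catalytic core of cytochrome c oxidase, were 49110.1, 45832 and 43213 in wildtype and 152588, 158188 and 165779 in the double mutant. Every double mutant library was above every wildtype library for both, with changes of 2.05 ± 0.068 (adjusted p = 4.91e-10) and 1.79 ± 0.07 (adjusted p = 1.84e-09). The oxidase subunits ctc-2 and ctc-3 rose by 1.62 ± 0.086 and 1.83 ± 0.077, and cytochrome b of complex III, ctb-1, by 1.25 ± 0.077. In lonp-1(cmh24) the means of atp-6 and ctc-1 were 70517 and 169309.5, against 61355 and 158852 in the double mutant.

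The 7 mitochondrial subunits of complex I split. The rises of nduo-1, nduo-4, nduo-5 and nduo-2 were 1.83 ± 0.095, 1.75 ± 0.067, 1.66 ± 0.084 and 1.13 ± 0.15. The counts of nduo-6 were 1325, 838 and 774 in wildtype and 1115, 1257 and 1219.5 in the double mutant, those of nduo-3 were 120.0, 113 and 111 in wildtype and 129, 114 and 139 in the double mutant, and those of ndfl-4 were 34.7, 32.3 and 28.6 in wildtype and 21.9, 25.2 and 33.7 in the double mutant. In these 3 genes the groups overlapped and the changes of 0.33 ± 0.21, 0.14 ± 0.11 and -0.25 ± 0.21 did not pass the test, although nduo-6 passed without wildtype replicate 1, the highest wildtype library, at 0.57 (adjusted p = 4.69e-06). The same 3, with nduo-2 and nduo-5, were lower in the double mutant than in lonp-1(cmh24), with log2 changes of -1.15 ± 0.065 for nduo-6, -1.0 ± 0.10 for nduo-3, -1.38 ± 0.18 for ndfl-4, -1.01 ± 0.074 for nduo-2 and -0.37 ± 0.072 for nduo-5. Their mean counts in lonp-1(cmh24) were 2662, 255, 70.6, 743 and 28600.5. In total 5 of the 12 mRNAs were lower and 0 higher than in that single mutant, and 10 were lower on FPKM.

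Both mitochondrial rRNA genes stood far above wildtype. The counts of MTCE.7, the rRNA of the small subunit (MtDNA, 898 to 1593), were 227, 271 and 209 in wildtype and 4691, 4930.2 and 5171 in the double mutant. Those of MTCE.33, the rRNA of the large subunit (MtDNA, 10403 to 11354), were 125, 91.2 and 87.7 in wildtype and 2096, 2105 and 2339 in the double mutant. The groups were far from overlapping, at 20.9-fold (log2 4.39 ± 0.087, adjusted p = 9.63e-11) and 21.6-fold (log2 4.43 ± 0.13, adjusted p = 2.75e-09). Both were lower than in lonp-1(cmh24), at -0.38 ± 0.11 and -0.67 ± 0.12 (adjusted p = 0.0189 and 0.00108), where their means were 6460.5 and 3516. For MTCE.7 that call was lost without double mutant replicate 1 (adjusted p = 0.0757), double mutant replicate 2 (0.0597) or lonp-1(cmh24) replicate 3 (0.0743). The sources used here do not say how the library preparation treated rRNA, so these values are levels of rRNA reads that remained in the libraries.

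**Figure D3:**
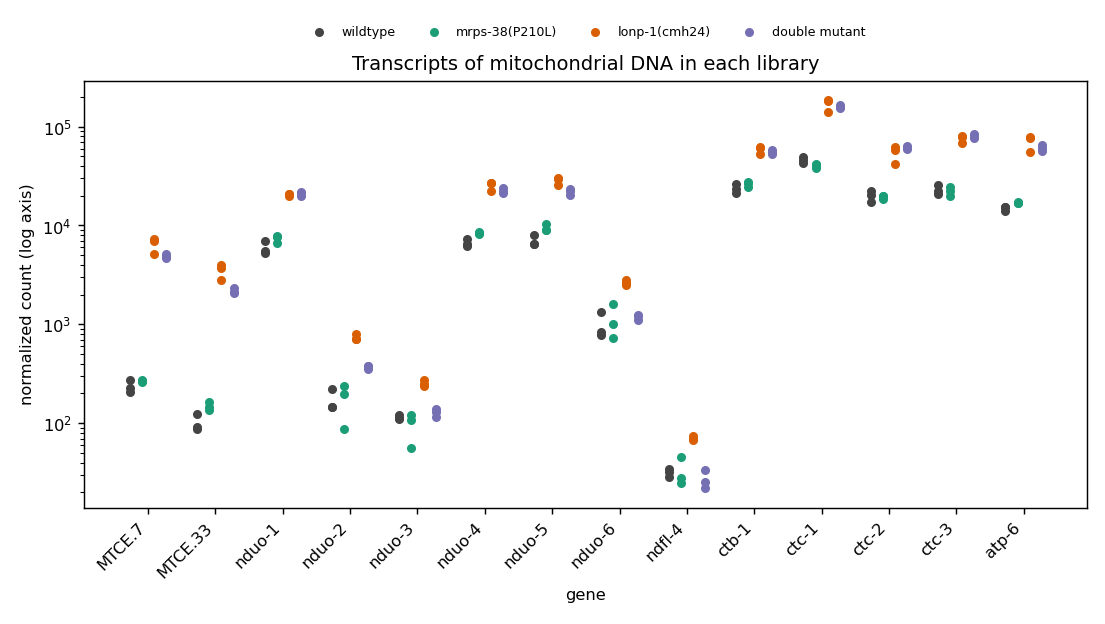
Normalized count (log axis) of the 12 mRNAs and 2 rRNAs of mitochondrial DNA in each of the 12 libraries, 1 point per library and 1 colour per genotype. The double mutant lies above wildtype for 11 of the 14, and nduo-6, nduo-3 and ndfl-4 overlap wildtype.

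Genes of the mitochondrial stress response were on balance higher, 14 of 19 rising and 4 falling, with a median of 0.43 against 0.10 for all genes. The counts of hsp-6, the mitochondrial HSP70 (chromosome V, 4824124 to 4826760), were 13788, 11676 and 13022 in wildtype and 21261, 21478 and 21650 in the double mutant. The lowest double mutant library lay far above the highest wildtype library, a change of 0.75 ± 0.064 (adjusted p = 1.07e-06). Its means were 20993 in lonp-1(cmh24) and 22431 in mrps-38(P210L), against 21463 in the double mutant. The transcription factor gene atfs-1 had counts of 1229, 1134 and 1212 in wildtype and 2179, 2154 and 2234 in the double mutant and rose by 0.88 ± 0.047. Its means were 1857 in lonp-1(cmh24) and 2469.7 in mrps-38(P210L), against 2189 in the double mutant.

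The chaperonin hsp-60, a partner of hsp-6 in folding matrix proteins, went the other way. Its counts were 22112, 19224 and 20524 in wildtype and 14047, 14012 and 13548 in the double mutant, with no overlap and a change of -0.57 ± 0.06 (adjusted p = 5.79e-06). The other members that fell were jmjd-3.1, a histone demethylase (-1.47 ± 0.062), dve-1, a chromatin factor of the response (-0.56 ± 0.076), and the ubiquitin-like gene ubl-5 (-0.52 ± 0.073). The largest rises were those of cyp-14A4, a cytochrome P450 gene (4.10 ± 0.12, from a mean of 24 to 427), fmo-2, a flavin monooxygenase (2.79 ± 0.24, from 26.5 to 181), and hrg-9, a heme trafficking gene (1.29 ± 0.096). All 3 were lower in the double mutant than in lonp-1(cmh24), at -0.32 ± 0.081, -1.16 ± 0.099 and -0.69 ± 0.07 on the log2 scale, although cyp-14A4 did not pass in a fit of all 12 libraries (adjusted p = 0.0564). Against that mutant 10 of the 19 were lower and 3 higher (15 and 1 on FPKM).

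Of 11 genes of mitochondrial proteolysis 6 rose and 3 fell, lonp-1 among the latter, with ymel-1 and spg-7, AAA proteases of the inner membrane, at 0.60 ± 0.043 and 0.46 ± 0.05. In the list of mitochondrial fission, fusion and mitophagy 16 of 22 rose and 3 fell (median 0.31). They included the dynamin-like gene drp-1, which divides mitochondria (0.91 ± 0.041), allo-1, a factor of paternal mitophagy (1.44 ± 0.047), and mff-2 (1.52 ± 0.056). The fission gene fis-1 rose by 1.82 ± 0.15 and was 3.59-fold above lonp-1(cmh24) too.

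Proteins of the mitochondrial ribosome were slightly lower. In the large subunit 27 of 42 fell and 1 rose, and in the small subunit 20 of 29 fell and 1 rose, with no change of 2-fold and medians of -0.21 in both. The counts of mrps-33 were 1232, 1147 and 1239.7 in wildtype and 747, 715 and 689 in the double mutant, the largest fall of the small subunit at -0.75 ± 0.054. In the large subunit mrpl-35 and mrpl-15 fell with log2 changes of -0.61 ± 0.054 and -0.61 ± 0.058. The members that rose were mrps-14 (0.42 ± 0.041) and mrpl-45 (0.33 ± 0.061), and mrpl-45 did not pass in a fit of all 12 libraries (adjusted p = 0.0778). Against lonp-1(cmh24) the medians were 0.01 and 0.01 (-0.21 and -0.20 on FPKM), and against mrps-38(P210L) they were -0.38 and -0.37 (-0.11 and -0.10 on FPKM).

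Of 10 factors that act with that ribosome, or on mitochondrial DNA, 6 rose, 1 fell and 3 did not pass the test (2 fell with TMM factors). The elongation factor gene tsfm-1 rose by 0.70 ± 0.041, mttu-1 by 1.14 ± 0.15, and polg-1, the mitochondrial DNA polymerase, by 1.11 ± 0.084. The helicase gene twnk-1 was the 1 member that fell, with counts of 117, 125 and 125 in wildtype and 39.1, 41.7 and 40.5 in the double mutant and a change of -1.58 ± 0.13. The groups did not overlap, and twnk-1 was lower than in both single mutants as well (-0.92 ± 0.15 and -2.38 ± 0.12). Of the aminoacyl-tRNA synthetases 16 of 32 fell and 5 rose. The prolyl-tRNA synthetase pars-1 fell with a log2 change of -0.91 ± 0.04, and the mitochondrial enzymes rars-2 and nars-2 rose by 0.65 ± 0.069 and 0.59 ± 0.053 on the log2 scale. With TMM factors 23 fell and 3 rose.

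**Figure D4:**
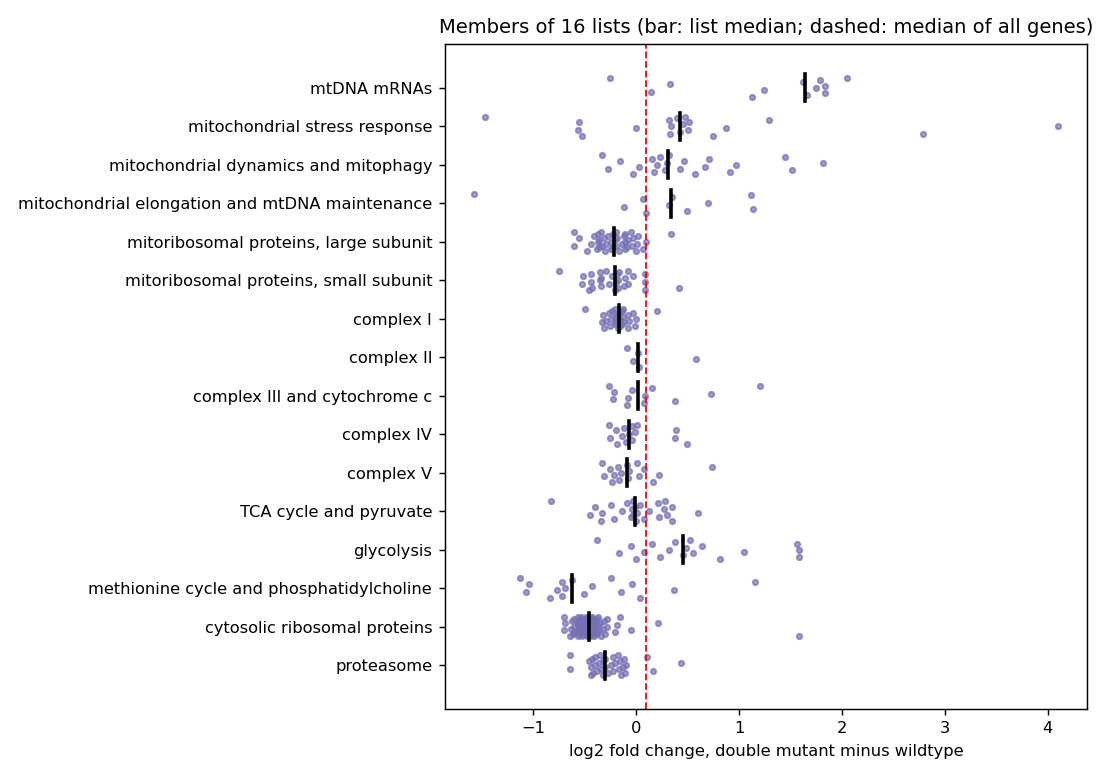
Log2 fold change of the double mutant against wildtype (horizontal axis) of the tested members of 16 lists, 1 point per gene, with the list median as a black bar. The dashed line marks the median of all genes tested, 0.10, and lists of the mitochondrial and cytosolic ribosome and of complex I lie to the left of it.

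Nuclear subunits of the respiratory chain were close to wildtype, except that small falls prevailed in complex I. There 23 of 31 members fell and 1 rose (median -0.17), against 34.6% and 44.1% of all genes, and none changed 2-fold. The counts of nuo-4, a supernumerary subunit, were 7953, 7832 and 8170.4 in wildtype and 6263, 6368 and 6459.6 in the double mutant, a change of -0.33 ± 0.045. Against lonp-1(cmh24) 18 of 31 members of complex I were higher and 0 lower (median 0.16), and against mrps-38(P210L) 30 were lower and 1 higher (median -0.50). On FPKM 1 was higher and 6 lower than in lonp-1(cmh24) (median -0.05), so the difference from that mutant has no settled direction.

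In complexes II to V the medians lay between -0.09 and 0.02, and those of complexes II and III changed sign with TMM factors (-0.11 for both). Complex V had 7 of 17 members lower and 3 higher, but 11 lower without wildtype replicate 2 and 10 with TMM factors. Complex IV had 3 of 15 lower and 2 higher, but 6 lower without wildtype replicate 2 and 9 with TMM factors. The clearest rises in these complexes were of cytochrome c cyc-2.2, with counts of 566, 731 and 669 in wildtype and 1502, 1490.5 and 1503 in the double mutant, and of ucr-2.3 and sdha-2, paralogs of a complex III core protein and of the flavoprotein of complex II. The groups did not overlap for cyc-2.2, which rose by 1.20 ± 0.081, and ucr-2.3 and sdha-2 rose by 0.73 ± 0.047 and 0.58 ± 0.048. All 3 were above both single mutants too, cyc-2.2 by 1.84 ± 0.094 and 5.36 ± 0.56.

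Of 27 enzymes of the TCA cycle and of pyruvate entry 9 rose and 8 fell (5 and 13 with TMM factors). The isocitrate dehydrogenase idh-2 fell with a log2 change of -0.83 ± 0.051, and the glyoxylate enzyme gene icl-1 rose by 0.60 ± 0.047. Glycolysis moved more to 1 side, with 14 of 19 genes higher, 2 lower and a median of 0.45. The counts of hxk-1, a hexokinase that phosphorylates glucose, were 1092, 1201 and 1111 in wildtype and 3323, 3412 and 3323 in the double mutant. Its lowest double mutant library was far above the highest of wildtype, and the change was 1.56 ± 0.048 (adjusted p = 2.48e-10). The glyceraldehyde-3-phosphate dehydrogenases gpd-1 and gpd-4 rose by 1.58 ± 0.055 and 1.58 ± 0.058, and the aldolase aldo-1 by 1.05 ± 0.048. The members that fell were pgk-1 (-0.38 ± 0.045) and tpi-1 (-0.17 ± 0.048), and tpi-1 did not pass in a fit of all 12 libraries (adjusted p = 0.0773).

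In lipid metabolism acs-2, an acyl-CoA synthetase that feeds mitochondrial beta-oxidation, had counts of 608, 493 and 557 in wildtype and 5729.7, 5697 and 5593 in the double mutant. It stood 10.3-fold above wildtype (3.36 ± 0.067, adjusted p = 1.7e-11), and its mean in lonp-1(cmh24) was 5707. In the whole beta-oxidation list, acs-2 included, 22 of 43 fell, 6 rose and 15 did not pass the test (median -0.20). The peroxisomal acyl-CoA oxidase acox-1.2 fell with a log2 change of -2.59 ± 0.044, from a mean of 5496 to 914, and cpt-6, a carnitine palmitoyltransferase gene, at -2.33 ± 0.09. The acyl-CoA dehydrogenases acdh-8, acdh-5 and acdh-4 rose by 1.89 ± 0.055, 1.87 ± 0.12 and 1.79 ± 0.10.

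The fatty acid desaturase genes fat-5, fat-6 and fat-7 did not move together. The counts of fat-7 were 1399.5, 1941 and 1565 in wildtype and 518, 514 and 468 in the double mutant, a change of -1.70 ± 0.11 (adjusted p = 1.45e-06). The groups did not overlap, yet the level was 7.34-fold above that of lonp-1(cmh24), whose mean was 68.2 (2.88 ± 0.15). The paralogs fat-6 and fat-5 rose by 0.56 ± 0.065 and 1.06 ± 0.21, and both were above lonp-1(cmh24) too (0.95 ± 0.12 and 0.61 ± 0.087).

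Genes of the methionine cycle and of phosphatidylcholine synthesis were lower, 12 of 17 falling and 2 rising, with a median of -0.62. The counts of ahcy-1, which hydrolyses S-adenosylhomocysteine, were 91614, 62413 and 79217 in wildtype and 34471, 36492 and 34491 in the double mutant. The groups were well apart, at -1.13 ± 0.12 (adjusted p = 2.76e-05). The methyltransferase pmt-2 and the methionine synthase reductase mtrr-1 fell with log2 changes of -1.04 ± 0.061 and -1.07 ± 0.061, while pmt-2 was above lonp-1(cmh24) by 0.45 ± 0.045. The S-adenosylmethionine synthetase sams-5 rose by 1.15 ± 0.061. In propionate breakdown 7 of 13 genes fell, among them acdh-1 (-0.67 ± 0.056), ech-6 (-0.64 ± 0.056) and hach-1 (-0.82 ± 0.054), enzymes of the shunt that is used when vitamin B12 is low, and 1 rose. Among genes of amino-acid stress the cystathionine lyases cth-1 and cth-2 rose by 1.09 ± 0.053 and 0.86 ± 0.05, the asparagine synthetases split, asns-2 at 1.13 ± 0.071 and asns-1 at -0.95 ± 0.054, and cth-1, cth-2 and asns-2 were all above lonp-1(cmh24).

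Genes of cytosolic protein synthesis and breakdown were lower almost throughout. Of 81 cytosolic ribosomal proteins 75 fell and 2 rose (median -0.46), and together they took 19.6, 17.2 and 18.7% of reads in wildtype and 13.3, 13.6 and 13.3% in the double mutant. The counts of rps-8 were 83422, 65799.5 and 75864 in wildtype and 45840.3, 45867 and 45550.2 in the double mutant, the largest fall of the list at -0.71 ± 0.083. The 2 that rose were rpl-42, with counts of 49.6, 52.3 and 60.1 in wildtype and 152, 167 and 171 in the double mutant and a change of 1.58 ± 0.13, and rpl-11.1 (0.21 ± 0.05), which did not pass with TMM factors (0.09, adjusted p = 0.173). The paralog rpl-11.2 fell with a log2 change of -0.69 ± 0.078. Proteasome subunits counted 29 lower and 3 higher of 33 (median -0.30), with the catalytic subunit pbs-5 at -0.64 ± 0.047, while the lid paralog rpn-6.2 rose by 0.44 ± 0.075. Genes of the endoplasmic reticulum stress list fell in 14 of 16 cases. The disulfide isomerase pdi-2, which also serves collagen folding, had counts of 70591, 69846 and 72897 in wildtype and 27842, 28243 and 28146 in the double mutant and fell with a log2 change of -1.34 ± 0.055. Against lonp-1(cmh24) the median was 0.14 for ribosomal proteins and 0.09 for the proteasome, but -0.08 and -0.12 on FPKM, so neither has a settled direction there. Against mrps-38(P210L) the medians were -0.94 and -0.34, and -0.67 and -0.07 on FPKM.

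Yolk and oocyte genes rose throughout. All 6 vitellogenins rose (median 4.54). The counts of vit-2 (X, 5101042 to 5106169) were 5894, 7682 and 7236 in wildtype and 172246, 169896 and 169784 in the double mutant. Those of vit-6, the gene of a different yolk protein, were 8870, 9967 and 10092 in wildtype and 203684, 212779 and 210138 in the double mutant. No wildtype library came near a double mutant library, with changes of 4.63 ± 0.089 (adjusted p = 1.22e-11) and 4.44 ± 0.066 (adjusted p = 2.14e-12). All 6 were also higher than in lonp-1(cmh24), at a median of 1.52, and than in mrps-38(P210L), at 11.58. The 3 libraries of mrps-38(P210L) gave 0.000624, 0.000681 and 0.00383% of reads to these genes, the third far more than the others, and the median against that mutant was 13.12 without replicate 3 and 10.79 and 10.84 without replicates 1 and 2.

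All 30 genes of the oocyte and eggshell rose too, 29 of them at least 2-fold (median 2.81). The counts of perm-2, a component of the eggshell permeability barrier, were 454, 958 and 568 in wildtype and 22343, 22064 and 22687 in the double mutant. Those of meg-1, a P granule gene of the early embryo, were 8.93, 24.7 and 14.8 in wildtype and 843, 804 and 819 in the double mutant. Every double mutant library was far above every wildtype library in both, at 5.15 ± 0.28 and 5.69 ± 0.31. Here the double mutant did not stand to 1 side of lonp-1(cmh24), with 6 genes higher and 6 lower (2 and 10 on FPKM). The eggshell genes perm-2 and perm-4 were above that mutant by 1.47 ± 0.13 and 1.33 ± 0.14, but did not pass in a fit of all 12 libraries (adjusted p = 0.215 and 0.218).

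Sperm genes rose in the same libraries. Of 29 major sperm protein genes 28 rose, each at least 2-fold, and 1 fell (median 2.72), and of 59 genes of the spermatogenesis list 57 rose and 0 fell (median 1.79). The counts of msp-36 were 1413, 1605 and 1597 in wildtype and 11309, 11787 and 11428 in the double mutant, a change of 2.90 ± 0.056. The exception, msp-33, had counts of 1090, 1154 and 1069 in wildtype and 894, 899 and 956 in the double mutant and a change of -0.27 ± 0.052, which did not pass in a fit of all 12 libraries (adjusted p = 0.621). The largest rise of the spermatogenesis list was that of ssp-19, a sperm-specific protein gene, at 4.52 ± 0.13, from a mean of 30.9 to 726. Unlike oocyte genes, all 29 major sperm protein genes were above lonp-1(cmh24) (median 2.39), msp-33 included (2.20 ± 0.10).

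Most transcripts of the listed germline genes were higher as well. Genes of meiosis and of the germline had 43 of 46 members higher and 1 lower (median 0.75), with counts of gld-1, a translational regulator of germ cells, of 3388, 3900.4 and 3547 in wildtype and 11826, 12265 and 12266 in the double mutant, a change of 1.75 ± 0.057. The RNA helicase cgh-1 rose by 1.80 ± 0.054. All 27 genes of DNA replication rose (median 0.69), led by the ribonucleotide reductase subunit rnr-2, whose counts were 1427, 1319 and 1504 in wildtype and 5605, 5517 and 5641 in the double mutant (1.98 ± 0.052). Its level was below that of lonp-1(cmh24), at -0.42 ± 0.052 on the log2 scale. Argonautes counted 15 higher and 2 lower of 18. The sperm argonautes alg-3 and alg-4 rose by 1.45 ± 0.08 and 1.24 ± 0.051 and the nuclear germline argonaute hrde-1 by 1.44 ± 0.055, while alg-1 and alg-2, the argonautes of microRNAs, fell with log2 changes of -0.35 ± 0.046 and -0.37 ± 0.063. Histone genes differed in both directions, 6 higher and 14 lower of 25, with the linker histone gene his-24 at -2.40 ± 0.075.

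Genes of the molt fell throughout. All 24 genes of molting and of the apical matrix fell, 22 of them at least 2-fold (median -3.07). The counts of lpr-3, a lipocalin of the precuticle, were 9732, 8955 and 9618 in wildtype and 647, 686 and 631 in the double mutant. Those of noah-1, a zona pellucida protein of the cuticle, were 9902, 9159.5 and 9588 in wildtype and 778, 779.7 and 845 in the double mutant. Every wildtype library stood far above every double mutant library in both genes, at -3.85 ± 0.05 (adjusted p = 1.6e-12) and -3.57 ± 0.05 (adjusted p = 1.69e-12). Against lonp-1(cmh24) 23 of the 24 were lower (median -1.91), and against mrps-38(P210L) 23 (median -2.93).

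Of the regulators of the molting cycle 6 of 7 fell and none rose. The counts of lin-42, the period homolog that paces molts, were 7975, 8569.5 and 8508 in wildtype and 1796, 1716 and 1739 in the double mutant, a change of -2.25 ± 0.046. The nuclear receptor nhr-25 fell with a log2 change of -2.62 ± 0.13 and the transcription factor myrf-1 with one of -2.46 ± 0.05. Hedgehog-related genes, many of which are made by the epidermis in each larval stage, were lower in 35 of 45 cases and higher in 6, with wrt-10 at -4.04 ± 0.067. The members grl-20, grl-23 and grl-25 were low in wildtype (means of 1.97, 4.85 and 6.84), somewhat higher in the double mutant (24.1, 31.5 and 43.3) and far higher in lonp-1(cmh24) (846, 1575 and 2055). Their rises over wildtype were 3.06 ± 0.42, 2.43 ± 0.37 and 2.43 ± 0.34, and they were below lonp-1(cmh24), at -4.83 ± 0.58, -5.32 ± 0.62 and -5.23 ± 0.64 on the log2 scale. Among astacin metalloproteases nas-37, which sheds the old cuticle, fell with a log2 change of -2.44 ± 0.052 within a list of 22 lower and 4 higher of 29.

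Cuticle collagens moved far in both directions. The 6 furrow collagens, which shape the annuli, all fell (median -3.75), and the counts of dpy-10 were 4614, 4371 and 4506 in wildtype and 306, 324 and 333 in the double mutant (-3.80 ± 0.049). Of 10 body-shape collagens 9 fell and none rose, with sqt-1 and rol-8 at -3.0 ± 0.074 and -3.02 ± 0.062. The 131 tested genes named col split, 47 higher and 71 lower, with 42 and 56 at least 2-fold. The counts of col-143 (chromosome V, 6835635 to 6836704) were 21.8, 47.5 and 29.6 in wildtype and 22977, 22527 and 22836 in the double mutant. On the scale of count + 1 this was the largest rise among genes with a mean of at least 50, 704-fold (9.46 ± 0.28, adjusted p = 1.13e-06). Ratios of reads were larger for F22B3.7 (1439) and srx-70 (789.8), which had almost no reads in wildtype. The counts of col-41 (X, 15175032 to 15176481) were 13695, 5110 and 10766 in wildtype and 141, 169.7 and 143 in the double mutant. That was the largest fall of a collagen, 60-fold (-5.91 ± 0.38, adjusted p = 3.69e-05). Wildtype replicate 2 had the lowest count of col-41 and the highest count of col-143 within its group, and the groups remained far apart with either.

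Adult cuticle collagens did not share a direction. Of 9 tested, 3 rose and 6 fell, each at least 2-fold, with a median of -1.56. The counts of col-19, a marker of the adult cuticle, were 2914, 5556 and 3869 in wildtype and 54969, 56189 and 55229 in the double mutant. It rose by 3.80 ± 0.23 with col-7 and col-62 (2.57 ± 0.22 and 2.48 ± 0.19). The counts of bli-1, a collagen of the adult cuticle's struts, were 10154, 14997 and 12619 in wildtype and 1283, 1328 and 1192 in the double mutant, and bli-1 fell with a log2 change of -3.29 ± 0.14 with bli-2 and col-38 (-3.01 ± 0.15 and -1.77 ± 0.23). In mrps-38(P210L) the means of col-19 and bli-1 were 68.5 and 516, below wildtype in both, and the double mutant was above that mutant by 11.23 ± 1.51 for col-19. Without the third mrps-38(P210L) library the col-19 difference was 12.77, and it was 9.65 in edgeR. For bli-1 the difference of 1.62 ± 0.65 did not pass the test (adjusted p = 0.0735), but it passed without that library (2.28, adjusted p = 9.88e-12) and under 5 other settings, FPKM and edgeR among them. The most read collagens that rose, col-124 and col-122, went from means of 9749 and 8940.5 to 143517 and 111467 (3.93 ± 0.23 and 3.67 ± 0.18). Their rises, and those of col-8 (7.29 ± 0.16), col-101 (7.86 ± 0.18), col-95 (8.58 ± 0.19) and col-135 (7.66 ± 0.44), had no overlap between the groups.

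**Figure D5:**
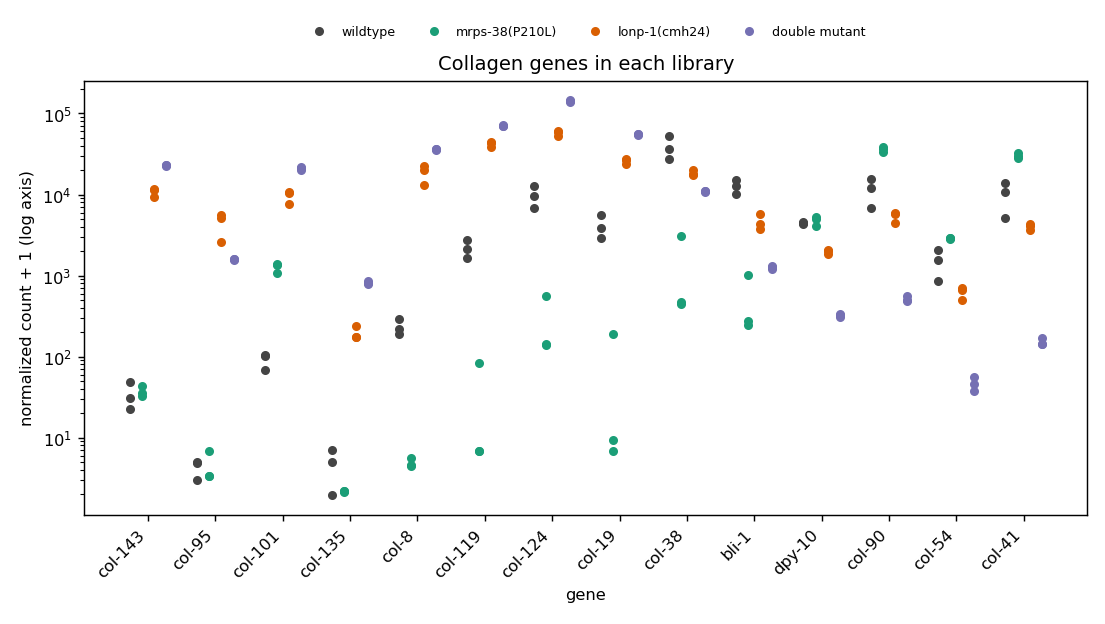
Normalized count + 1 (log axis) of 14 collagen genes in each of the 12 libraries, ordered by their change between the double mutant and wildtype. For col-143 the double mutant has a mean of 22779.9 and wildtype of 33, and for col-41 the double mutant has a mean of 151 and wildtype of 9857.

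Heterochronic genes, which set the timing of larval fates, had 12 of 15 members lower and 2 higher (median -0.92). The counts of the let-7 locus were 299.5, 275 and 305 in wildtype and 62.9, 53.3 and 53 in the double mutant, a change of -2.36 ± 0.11, and the counted locus covers the primary transcript, not the mature microRNA alone. Those of lin-41, a let-7 target that holds back adult fates, were 1058, 634 and 826 in wildtype and 2691, 2781 and 2629.7 in the double mutant. The groups did not overlap, and lin-41 rose by 1.72 ± 0.18 (adjusted p = 0.000234), and its mean in lonp-1(cmh24) was 2632. The transcription factor blmp-1 and the cofactor mab-10 fell with log2 changes of -1.99 ± 0.054 and -1.83 ± 0.063, and lin-28, an RNA-binding regulator of early larval fates, rose by 0.50 ± 0.051.

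Markers of somatic tissues were mostly lower. Body wall muscle genes counted 30 lower and 1 higher of 33 (median -0.41). The counts of the myosin heavy chain unc-54 were 84789.7, 103079.9 and 98881 in wildtype and 75979, 74756 and 74602 in the double mutant, a change of -0.34 ± 0.079, and those of troponin I, tni-1, fell with a log2 change of -1.39 ± 0.05. Of the 33 genes 30 were higher than in lonp-1(cmh24) (median 0.56), unc-54 by 0.85 ± 0.046, so muscle transcripts lay between that mutant and wildtype. Pharynx genes had 11 of 14 members lower and 3 higher. Intestine markers counted 7 higher and 0 lower of 12 (median 0.40), and 0 became 3 without wildtype replicate 2.

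Neuron markers fell in 33 of 41 cases (median -0.68), as did 72 of 118 neuropeptide and insulin genes, of which 12 rose. The touch neuron tubulin mec-7 fell with a log2 change of -1.39 ± 0.058 and the channel gene osm-9 with one of -1.57 ± 0.18. The enzymes that make tyramine and octopamine stood out from the list. The counts of tbh-1, which converts tyramine to octopamine, were 53.6, 156 and 82.8 in wildtype and 2773, 2599.9 and 2769 in the double mutant. Those of tdc-1, which makes tyramine, were 423, 428 and 409.9 in wildtype and 1656, 1633 and 1573 in the double mutant. Both were above wildtype in every library, by 4.92 ± 0.39 (adjusted p = 9.18e-05) and 1.95 ± 0.05 (adjusted p = 6.38e-11), and in worms both are also made in gonadal sheath cells. The insulin-like gene ins-7 rose by 2.14 ± 0.24 and the neuropeptide-like gene nlp-30 of the epidermis fell with a log2 change of -2.03 ± 0.092.

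Most tested genes of the response to intracellular pathogens were higher in the double mutant. Of 34 pals genes 18 were tested, 12 rose and 2 fell, with a median of 1.16. The count of rises rests on the count minimum, with 7 at a mean of at least 50. A member with few reads in 1 group passes that minimum only through the group where it is high. The counts of pals-6 were 18.8, 15.2 and 17.7 in wildtype and 264, 269.6 and 244 in the double mutant, a change of 3.84 ± 0.14, and pals-14 rose by 4.12 ± 0.34. The groups did not overlap in pals-6, which was below lonp-1(cmh24), at -0.81 ± 0.16 on the log2 scale. The 2 that fell were pals-22 (-0.60 ± 0.15) and pals-25 (-0.78 ± 0.15), a repressor and an activator of this response.

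Other immune genes moved both ways. C-type lectins had 53 of 122 members higher and 36 lower, and immune effectors 21 higher and 18 lower of 51, with medians of 0.30 and 0.09, the latter -0.04 with TMM factors. The counts of irg-5, an infection response gene, were 427, 908 and 633 in wildtype and 59.1, 79.5 and 59.7 in the double mutant. It fell with a log2 change of -3.24 ± 0.28 (adjusted p = 3.78e-05), and its mean in lonp-1(cmh24) was 49.3. The saposin-like gene spp-27 rose, with 1 read in wildtype and 321 in the double mutant, a ratio of 317 (56.4 to 12541), where the bounds are an exact 95% interval of read counting, and dod-23 rose from 66.5 to 786 (3.63 ± 0.29). The lysozyme gene lys-4 fell with a log2 change of -2.50 ± 0.34 and lys-1 rose by 0.73 ± 0.057 on the log2 scale.

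In the lists of detoxification, 30 of 57 cytochromes P450 rose and 15 fell (median 0.56), against 44.1% and 34.6% of all genes. Glucuronosyltransferases, 28 higher and 18 lower of 59, were near the shares of all genes. Glutathione S-transferases were balanced at 14 and 16 of 42. The counts of cyp-33C8 were 305, 303 and 281 in wildtype and 4884, 4922 and 4814 in the double mutant, a change of 4.04 ± 0.049, and cyp-13A8 rose by 5.74 ± 0.31 and ugt-62 by 3.0 ± 0.095. In the flavin monooxygenase family fmo-2 alone rose, and fmo-1, fmo-3, fmo-4 and fmo-5 fell, fmo-4 at -1.51 ± 0.043. Of 12 tested genes of the cytosolic heat shock list 8 fell and 3 rose. Of the small heat shock proteins of the hsp-16 family only hsp-16.2 and hsp-16.41 were tested, and both fell, hsp-16.41 with counts of 856, 873 and 841 in wildtype and 105, 83.4 and 91.5 in the double mutant (-3.19 ± 0.093) and hsp-16.2 at -2.47 ± 0.087, while hsp-12.3 rose by 1.92 ± 0.19. In the list of the hypoxia factor HIF-1 and sulfide 3 rose and 5 fell of 12, with the cysteine synthase-like gene cysl-2 at -2.08 ± 0.048. The iron store gene ftn-1 had counts of 81.3, 32.3 and 65 in wildtype and 286, 286 and 273 in the double mutant and rose by 2.32 ± 0.32.

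F-box A genes, a large family of substrate adaptors of ubiquitin ligases, counted 57 higher and 15 lower of 110 (median 0.50), and 43 more were below the count minimum. The count of rises rests on that minimum, with 37 at a mean of at least 50. Transthyretin-related genes had 29 of 55 members higher and 10 lower. Nuclear hormone receptors counted 69 lower and 43 higher of 189, with nhr-244 (5.68 ± 0.31) and nhr-235 (-3.76 ± 0.28) at the ends. Lysosomal proteases were of both kinds, with the aspartyl proteases asp-8 at 2.80 ± 0.073 and asp-12 at -2.90 ± 0.29, and asp-12 had counts of 940.3, 2031 and 1396 in wildtype and 209, 176 and 172 in the double mutant. The alpha-tubulin gene tba-8 fell from a mean of 86.7 to 1.92 (-4.87 ± 0.37), while its mean in lonp-1(cmh24) was 86.7 and in mrps-38(P210L) 681.

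Outside these lists, a few genes were read in only 1 of the groups. C09E7.8 (chromosome III, 6553627 to 6558587) had counts of 306, 405 and 374 in wildtype and 0, 0 and 0 in the double mutant, at least 125-fold lower when 3 reads per library are taken as the floor. It was also without reads in lonp-1(cmh24) and had a mean of 148 in mrps-38(P210L). W08E12.4 (chromosome IV, 3302358 to 3302975) had counts of 124, 61.8 and 76.9 in wildtype and 0, 0 and 0 in the double mutant, at least 30.3-fold lower, and no reads in either single mutant. Of genes with no reads in wildtype, W06D11.2, skr-7 and T02G6.5 had the most reads in the double mutant, with means of 55.1, 50.7 and 49.7, at least 18.8-, 17.3- and 17-fold above the floor.

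Other genes with large falls were low in all 3 mutant genotypes. The counts of BE0003N10.6 (chromosome III, 1056230 to 1060061) were 712, 1157 and 836 in wildtype and 14.3, 19.4 and 10.6 in the double mutant, with means of 10.8 in lonp-1(cmh24) and 11.7 in mrps-38(P210L). Those of D1014.6 (chromosome V, 8121168 to 8123470) were 162, 333 and 224 in wildtype and 1.91, 0 and 0.963 in the double mutant, with means of 1.12 and 2.34 in the single mutants, and its neighbour D1014.7 fell from a mean of 224 to 3.85. D1014.6 had 3 reads in the double mutant and 740 in wildtype, a ratio of 250.2 (85.3 to 1216). The changes of BE0003N10.6 and D1014.7 against wildtype were -5.85 ± 0.23 and -5.49 ± 0.27, and BE0003N10.6 passed the test against neither single mutant (0.47 ± 0.36 and 0.35 ± 0.37). Among the largest rises, F22B3.7 (chromosome IV, 11417581 to 11421796) had counts of 0, 1.9 and 0 in wildtype and 929, 966 and 913 in the double mutant, or 2 reads in wildtype and 2918 in the double mutant, a ratio of 1439 (398 to 11885), with a mean of 1150 in lonp-1(cmh24) and 1.18 in mrps-38(P210L). The counts of F15D4.5 were 31.7, 29.5 and 17.7 in wildtype and 4579, 4501 and 4698 in the double mutant (7.44 ± 0.20) and those of C07G1.7 were 7.93, 8.55 and 12.8 in wildtype and 1855, 1849 and 1915 in the double mutant (7.47 ± 0.15). The pseudogene srx-70 rose as well, with 1 read in wildtype and 801 in the double mutant, a ratio of 789.8 (141 to 31236), and ule-1, named for a uterine lumen protein, by 7.28 ± 0.21.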

How the data were processed

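Per the labels' protocols, RNA of whole worms was extracted with Trizol and sequenced as stranded paired-end libraries. Per the submitters' processing notes, STAR, featureCounts and DESeq2 were used with WBcel235; the sources used here name no versions. The authors deposited DESeq2 normalized counts, a signal in which each library is divided by its own size factor, and FPKM, for 19568 genes and 12 libraries. Gene names and positions are those of the deposited tables. Within each library all normalized counts were multiples of 1 step (tolerance 0.01 reads), which gave back whole reads. The gene length that these reads and the FPKM imply deviated from its median across libraries by a relative 1.8e-14 at most.

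The test was limma 3.58.1 (R 4.3.3, trend, robust, statmod 1.5.0) on log2 of the normalized count + 1, two-sided, fitted on the 6 libraries compared and on genes that averaged 10 or more. Fold changes understate the change of low genes. Labels give biological replicates without saying how cultures were separated, and p-values measure the spread between these libraries. Floors of 3 reads cover counting error only. Scripts were tested on simulated data with the same spread in both groups, which does not cover the unequal spread of these libraries. Alternatives were other pseudocounts, filters and factors, quasi-likelihood tests of the whole reads in edgeR 4.0.16, DESeq2 1.42.0, FPKM, all 12 libraries, a replicate block, group weights (added after the data were seen) and each library left out.

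The comparison, the 67 gene lists and the genes named were chosen with earlier results of these data known, so no list was given a test of its own. Named are the 12 largest changes in each direction among called genes that averaged 50 or more and did not overlap, genes without reads in 1 group, lonp-1, hsp-6, hsp-60, atfs-1, the mitochondrial transcripts, and from each list its largest changes, highest means and members against its direction. The text draws on these. The genes mrps-38 and atf-4 are not analysed here.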

Additional observations from a re-analysis of the deposited data

How the results depend on the processing

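Between the double mutant and wildtype all counts over all genes stayed within 1.5 times under every alternative run, with 5883 to 7616 genes higher and 4509 to 6293 lower. With 1 library left out they were 6479 to 7041 and 4981 to 5505. Against lonp-1(cmh24) the counts on FPKM were 3216 higher and 6470 lower (median of all genes -0.18, against 0.03 on normalized counts). On normalized counts 1217 genes were lower at least 2-fold than in that mutant. They were 758 when only genes with a mean of at least 50 were tested, which are fewer genes. Calls higher against lonp-1(cmh24) made up 55.7% in the main fit, 40.6% with TMM factors and 33.2% on FPKM. Against mrps-38(P210L) they made up 52.1%, and 62.6% on FPKM. edgeR called 6104 genes higher and 6293 lower against wildtype, and DESeq2 5883 and 5770. Same-numbered libraries of both groups correlated at -0.02 in each case in their deviations from the group means. That cannot show whether replicate numbers pair the libraries, since the double mutant replicates lay close to counting noise. With a replicate block 6787 genes were higher and 5296 lower. With 1 variance per group the counts were 6859 and 5329. Of 178 genes tested and named, 173 kept their direction and their side of the threshold under every alternative that gave a value. The others were nduo-6, mrpl-45, msp-33, rpl-11.1 and tpi-1, whose values stand beside them, and the cause was not tested. For nearly balanced lists of respiratory complexes the counts rest on the scaling and on wildtype replicate 2, and differences from wildtype near 0.1 on the log2 scale are under what these scalings can settle. For differences from the single mutants the limit is wider, since FPKM moved the median of all genes from 0.05 to 0.33 against mrps-38(P210L).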

Other observations

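Genes on the X chromosome had a lower distribution than those of the autosomes. Of 2213 tested X-linked genes 10.3% rose and 19.3% fell at least 2-fold, with a median log2 fold change of -0.31. On the 5 autosomes the median lay between 0.09 on chromosome V and 0.23 on chromosome I, and 15.7% (chromosome III) to 24.4% (chromosome IV) of genes rose at least 2-fold. The vitellogenin genes vit-2 and vit-5 rose although they are X-linked (4.63 ± 0.089 and 5.07 ± 0.056), and the collagen col-41 and the molting genes lpr-3 and sym-1 were X-linked genes that fell (-5.91 ± 0.38, -3.85 ± 0.05 and -3.97 ± 0.053).

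Among the genes tested, those annotated as pseudogenes were higher more often than protein-coding genes. Of 561 tested, 38% rose and 3.92% fell at least 2-fold (median 0.69), against 18.3% and 12.3% of 14897 protein-coding genes (median 0.08). Only 561 of 1079 pseudogenes passed the count minimum, against 14897 of 17798 protein-coding genes. A gene with few reads in 1 group passes only through the group where it is high. The part of the count minimum in these shares was not tested. Of the chemoreceptor genes, most of which are made in few neurons, 55 of 586 passed the count minimum, 26 rose and 8 fell. These counts rest on the count minimum, with 82 and 52 without one and 5 and 3 at a mean of at least 50. Among them srw-85 (chromosome V, 19429387 to 19431136) had counts of 387, 338 and 361 in wildtype and 7.63, 5.82 and 1.93 in the double mutant, a change of -6.03 ± 0.36, and sri-40 rose from a mean of 34.9 to 549 (4.0 ± 0.22). Of the 2964 genes that rose at least 2-fold, 421 were in a list used here, and of the 1864 that fell, 299. Of all 15585 genes tested, 2130 were in a list, a share close to both.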
